A study of Mus musculus with 9 samples.

Results

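The genes examined were 9 immune checkpoint and costimulatory molecules, Ctla4, Pdcd1, Lag3, Cd80, Cd86, Cd274, Pdcd1lg2, Icosl and Cd200, taken by name from the 22174 genes of a deposited expression table of splenic B cells. The comparison was made between leukemic B cells of transgenic mice and B cells of healthy mice, all of strain C57/BL6NTac, with 1 library per mouse. The 3 Eµ-MTCP1 mice (Z2551, Z2606 and Z2641) carried human MTCP1 (hMTCP1) under a VH promoter and the IgH-Eµ enhancer, which act in B cells, and all came from founder line Z36. The 3 Eµ-TCL1 mice (B4376, B4437 and C1594) carried human TCL1 (hTCL1) and were matched to them for age, and both groups were taken after the disease burden had become significant. The 3 wildtype mice (Z2754, Z2755 and Z2785) were littermates without hMTCP1. B cells were enriched from spleen by removal of other cells with a pan B cell kit and were not sorted further, so the transgenic samples hold leukemic and any remaining normal B cells together. Each group is thus 3 separate mice, and the Eµ-MTCP1 group represents 1 founder line.

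T cells need a signal beyond the antigen receptor, which CD80 and CD86 on B cells and other antigen-presenting cells deliver through CD28. CTLA4 binds the same ligands and restrains the T cell, and PD-1 (Pdcd1) does so after binding PD-L1 (Cd274) or PD-L2 (Pdcd1lg2), while ICOSL engages the costimulatory receptor ICOS, LAG3 recognizes MHC class II, and CD200 signals to an inhibitory receptor found mainly on myeloid cells. B1 cells and leukemic B cells of chronic lymphocytic leukemia (CLL) are known to carry several of these molecules.

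Reads had been assigned by the authors to a reference made almost entirely of coding sequences, with 6464089 to 8053017 assigned reads per library. Values are counts per 1000000 assigned reads (CPM) after TMM normalization, a scaling by the trimmed mean of log ratios, and 3 reads correspond to 0.326 to 0.495 CPM. The transgenes matched the labels: on the authors' normalized log2 scale TCL1A lay at 14.93 to 15.60 in Eµ-TCL1 mice and at 6.04 to 6.96 elsewhere, and MTCP1 at 11.12 to 12.30 in Eµ-MTCP1 mice and at 5.85 to 6.19 elsewhere. All 8 B cell markers examined were detected in every library, with summed levels of 9838 to 11420 CPM in Eµ-MTCP1, 7732 to 10100 CPM in Eµ-TCL1 and 8891 to 9992 CPM in wildtype mice. The libraries of Z2641 and Z2755 stood apart by the genes of the neutrophil list, which summed to 2015 and 3671 CPM against 24.1 to 293.9 CPM in the other 7 libraries. Most of these 2 sums was Mpo, at 937.3 and 2324 CPM, and Elane, at 327.4 and 661.8 CPM. Ly6g and Retnlg of the same list had at most 6 and 11 reads in any library. Z2755 was also sequenced on another lane than the other 8 libraries, so values without it are values within 1 lane. Leaving out Z2641 or Z2755 ended no call of a member except that of Ctla4 in Eµ-TCL1 mice without Z2755. In bulk samples fewer cells of a type and less RNA per cell cannot be told apart.

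Of the 9 genes, 8 passed the expression filter and were tested among 11165 genes (edgeR quasi-likelihood F test, two-sided, Benjamini-Hochberg). In Eµ-MTCP1 against wildtype mice Ctla4, Cd80 and Pdcd1lg2 were higher and Icosl was lower, at an adjusted p under 0.05. Of all genes tested, 5.49% were higher and 3.99% lower in that comparison. In Eµ-TCL1 against wildtype mice the same 4 genes differed in the same directions and Cd274 was higher as well, where 5.07% of all genes were higher and 4.13% lower. The 2 comparisons share the wildtype mice. Scaling by library size alone left these calls in place, although it moved the median log2 fold change of all genes from -0.02 to -0.26 and from -0.01 to -0.15, respectively, and changed the split of all calls from 613 higher and 446 lower to 391 and 730 in the former comparison and from 566 and 461 to 446 and 593 in the latter. Between the transgenic groups none of the 8 genes passed the test by edgeR or by DESeq2, where 0.0448% of all genes did so by edgeR. At an unadjusted p under 0.05, 2 of the 8 differed by edgeR, where 717 of the 11165 genes tested did so. The median log2 fold changes of the 8 genes were 0.82, 1.01 and 0.23 in the 3 comparisons, beside -0.02, -0.01 and -0.00 over all genes tested.

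**Figure D1:**
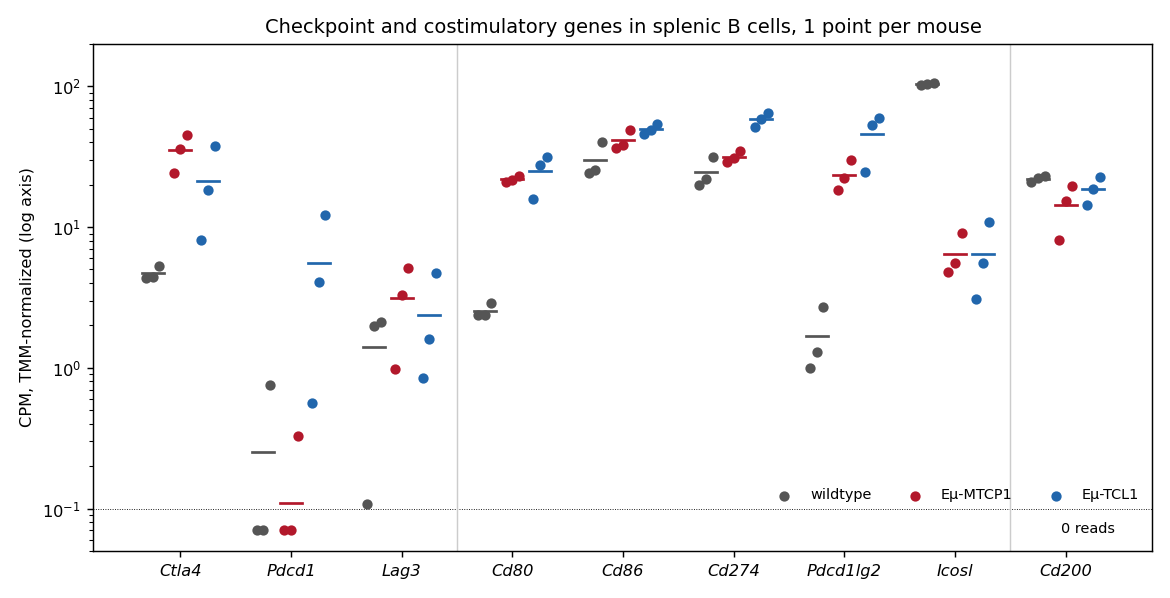
Expression of the 9 genes in CPM on a log axis, with 1 point per mouse, a bar for the mean of 3 mice, and libraries with 0 reads drawn below the dotted line. Receptors stand on the left, ligands in the middle and Cd200 on the right; Ctla4, Cd80 and Pdcd1lg2 are higher and Icosl lower in all 6 transgenic mice than in any wildtype mouse.

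**Figure D2:**
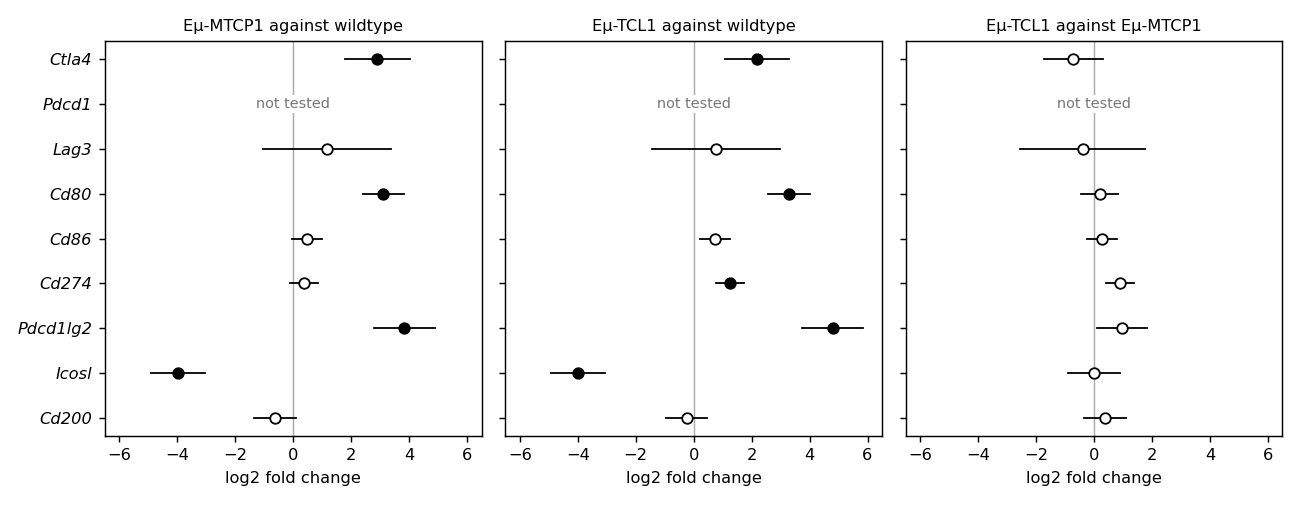
Log2 fold changes of the 9 genes (x axis) in the 3 comparisons, with 95% confidence intervals as lines. Filled points have an adjusted p under 0.05; no point is filled in the direct comparison of Eµ-TCL1 with Eµ-MTCP1, and Pdcd1 was under the expression filter.

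Among the receptors, Ctla4 (ENSMUSG00000026011, chr1:60887000-60915832, + strand, GRCm38) had the highest level per length in each group. Wildtype B cells held 4.34, 4.45 and 5.29 CPM, Eµ-MTCP1 cells 24.1, 36.1 and 44.9 CPM, and Eµ-TCL1 cells 8.10, 18.3 and 37.7 CPM. Every transgenic mouse exceeded every wildtype mouse, while both transgenic groups overlapped. The log2 fold change was 2.90 ± 0.51 (SE; adjusted p = 0.00584, edgeR) in Eµ-MTCP1 and 2.18 ± 0.50 (adjusted p = 0.0212) in Eµ-TCL1 mice. The Eµ-TCL1 call was lost without C1594, the Eµ-TCL1 mouse with the highest level, where the log2 fold change was 1.49 (adjusted p = 0.0667), and without wildtype mouse Z2785, Z2755 or Z2754, where the adjusted p values were 0.0585, 0.0840 and 0.0907. Over all alternatives for this value the adjusted p ranged from 2.1e-04 to 0.0907. The direct difference between the transgenic groups was -0.72 ± 0.46 (95% confidence interval -1.75 to 0.31; adjusted p = 0.845).

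CTLA4 is anchored in the membrane by a segment that its exon 3 encodes, and a soluble form arises when that exon is skipped. Reads were therefore read by transcript on the standard mouse reference, which holds whole transcripts with their untranslated parts. Ctla4-201, which contains the exon, took 94.97 to 99.1% of Ctla4 reads in Eµ-MTCP1, 95.1 to 98.1% in Eµ-TCL1 and 86.8 to 100% in wildtype mice. Ctla4-202, which lacks it, took 0.90 to 5.03%, 1.88 to 4.88% and 0 to 13.2%, or at most 32.1 reads in a library. By coding reads Ctla4-202 took 1.30 to 6.65%, 4.24 to 13.7% and 0 to 37.1%, or at most 36.8 reads. The ranges overlapped, and the higher Ctla4 level was carried by the form that includes the exon. The exon is shown here in full because it separates both forms (110 bases, chr1:60913219-60913328, + strand, GRCm38, from GENCODE M21).
Ctla4 exon 3: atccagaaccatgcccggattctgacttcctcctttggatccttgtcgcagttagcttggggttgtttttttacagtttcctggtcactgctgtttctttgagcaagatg
The 250 bases upstream of the start of Ctla4-201 (chr1:60908775-60909024, + strand, GRCm38.p6, RefSeq) are printed because most Ctla4 reads of every library belonged to the transcript that begins there.
Ctla4 upstream: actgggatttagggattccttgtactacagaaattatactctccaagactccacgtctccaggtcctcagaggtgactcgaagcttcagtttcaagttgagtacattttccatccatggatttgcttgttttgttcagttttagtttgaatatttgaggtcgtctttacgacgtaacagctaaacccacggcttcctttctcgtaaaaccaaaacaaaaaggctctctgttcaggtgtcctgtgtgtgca
Of these bases 42.4% were G or C, with 7 CpG dinucleotides, against a median of 52.4% over 32851 windows of the same length. Both strands were searched for 5 letter patterns with N for any base: AP-1 (TGANTCA), kappa-B (GGG and CC with 5 bases between), GAS (TTCNNNGAA), ISRE (GAAA and GAAA with 2 bases between) and octamer (ATGCAAAT). None was found in this window. They occur in 6.75, 45.8, 7.02, 2.98 and 1.60% of all windows, respectively, and a kappa-B match can count on both strands at once.

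PD-1 RNA exceeded 5 coding reads in 2 of the 9 mice, both Eµ-TCL1. Pdcd1 (ENSMUSG00000026285, chr1:94038305-94052553, - strand) had 0, 0 and 5 reads in wildtype mice, 0, 0 and 2 reads in Eµ-MTCP1 mice, and 4, 33 and 88 reads in C1594, B4437 and B4376. In CPM the Eµ-TCL1 mice stood at 0.560, 4.05 and 12.2. By coding reads all 3 Eµ-TCL1 mice lay above the Eµ-MTCP1 mice, and C1594 lay below wildtype mouse Z2785 at 0.755 CPM. On whole transcripts the transgenic groups overlapped, with Z2641 at 0.281 TPM (8 reads) above C1594 at 0.249 TPM (7 reads). The gene did not pass the expression filter; without the filter the adjusted p was 0.0777 against wildtype and 0.449 against Eµ-MTCP1 (edgeR). They were 0.110 and 0.664 on whole transcripts and 0.0894 and 0.624 with the deposited whole-gene counts, both with the filter. Of the settings that gave Pdcd1 a value, 1 passed the threshold, the deposited counts without the filter, which was chosen after the values had been seen (adjusted p = 0.00677 and 0.0464).

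LAG3 was low throughout. Lag3 (ENSMUSG00000030124, chr6:124904361-124911705, - strand) stood at 0.109, 1.98 and 2.12 CPM in wildtype, 0.984, 3.27 and 5.12 CPM in Eµ-MTCP1 and 0.840, 1.60 and 4.70 CPM in Eµ-TCL1 mice, which rests on 1 to 34 reads per library. The 3 groups overlapped. The log2 differences from wildtype, 1.17 ± 0.997 and 0.77 ± 0.995, did not pass the test (adjusted p = 0.5003 and 0.680, edgeR), and their 95% confidence intervals, -1.04 to 3.38 and -1.43 to 2.98, were wide, with 3 mice per group and few reads.

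These 3 receptors are also T cell genes, so a list of 14 T cell markers was read in the same libraries. The list summed to 403.3 to 458.8 CPM in wildtype, 475.8 to 959.0 CPM among Eµ-MTCP1 and 453.3 to 902.4 CPM among Eµ-TCL1 mice, and 3 to 5, 3 to 7 and 0 to 2 of its markers were at 0. Most of the sum was Cd2, which mouse B cells also express, at 328.3 to 895.1 CPM, followed by Lck at 30.7 to 115.5 CPM. The signal chain Cd3e, which defines T cells, had 0, 1 and 1 reads in the Eµ-MTCP1 mice, where Ctla4 had 146 to 316 reads. In these mice Cd3d had 4 to 7 reads, Trbc1 9 to 19 and Cd28 8 to 17. Wildtype mice had 5 to 8, 8 to 33 and 10 to 14 reads of these 3 genes. In C1594, with the highest Ctla4 level of its group, Cd3e had 2 reads against 269 of Ctla4, whereas in B4376, with the highest Pdcd1 level, Cd3e stood at 7.05 CPM, Trbc2 at 15.2 CPM and Cd8b1 at 10.4 CPM, each the highest of all libraries. The 6 NK cell markers summed to 126.8 CPM in B4376, also the highest, against 3.50 and 16.6 CPM in the other Eµ-TCL1, 22.3 to 25.3 CPM in Eµ-MTCP1 and 40.02 to 75.8 CPM in wildtype mice. B4376 had the highest Lag3 level of its group as well. B4437, with the second highest Pdcd1 level, held 4 reads of Cd3e and 45 of Trbc2. Another CD3 chain, Cd3g, was highest in Z2641 and B4376, at 22.5 and 20.2 CPM, against 0.492 and 1.71 CPM in the other Eµ-MTCP1, 7.42 and 8.23 CPM in the other Eµ-TCL1 and 1.19 to 1.73 CPM in wildtype mice. Ctla4 was lowest in Z2641 among the Eµ-MTCP1 mice. The part of these T cell and NK cell transcripts in the receptor values was not tested.

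**Figure D3:**
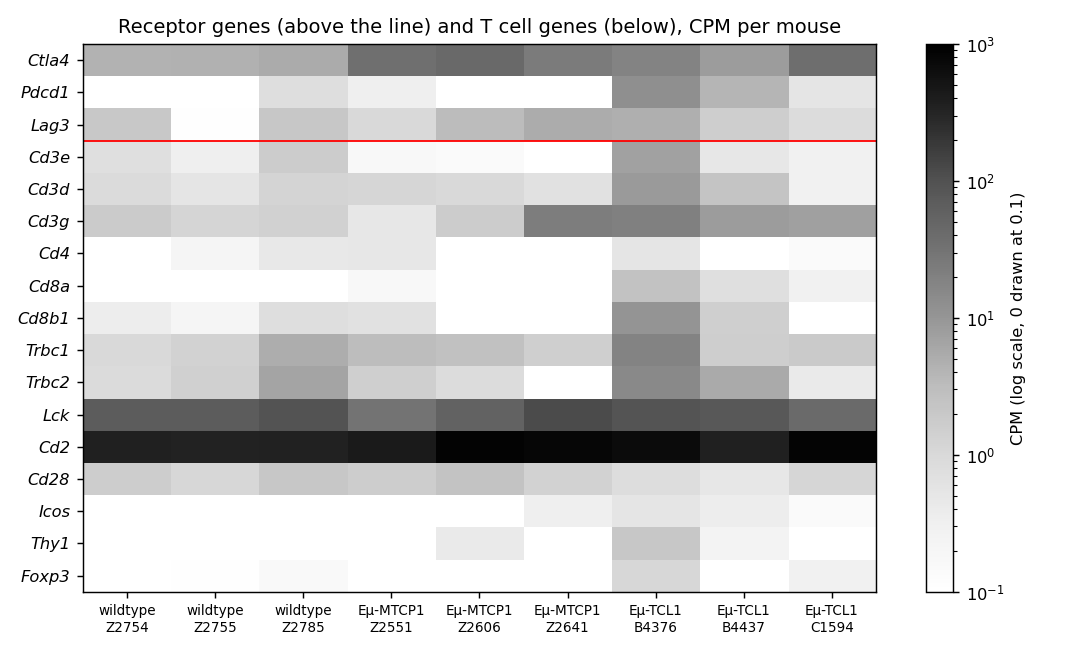
Expression of Ctla4, Pdcd1 and Lag3 (above the red line) and of the 14 T cell markers (below) in each mouse, as grey levels of CPM on a log scale. In the Eµ-MTCP1 mice Ctla4 is at 24.1 to 44.9 CPM while Cd3e, Cd4, Cd8a and Icos are near or at 0. Trbc1 is at 1.49 to 3.12, Cd28 at 1.32 to 2.415 and Lck at 30.7 to 115.5 CPM there, and Cd3g is dark in Z2641. In B4376 Pdcd1, Cd3e, Trbc2 and Cd8b1 are each at their darkest.

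Turning to the ligands, CD80 and CD86 share CD28 and CTLA4 as receptors, and of the pair only Cd80 passed the edgeR test against wildtype; whether their changes differ was not tested. Cd80 (ENSMUSG00000075122, chr16:38455561-38496335, + strand) stood at 2.35, 2.39 and 2.87 CPM in wildtype, 21.02, 21.5 and 23.1 CPM in Eµ-MTCP1 and 15.8, 27.4 and 31.5 CPM in Eµ-TCL1 mice. The groups of transgenic mice overlapped each other and lay far above the wildtype mice. The log2 fold changes were 3.10 ± 0.32 (8.60-fold; adjusted p = 3.9e-04, edgeR) and 3.29 ± 0.32 (9.78-fold; adjusted p = 2.5e-04). Over 19 alternatives they lay between 2.87 and 3.57 and between 3.09 and 3.62. The direct difference was 0.19 (95% confidence interval -0.44 to 0.82).

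Cd86 (ENSMUSG00000022901, chr16:36603869-36666081, - strand) was already present at 24.3, 25.4 and 40.0 CPM in wildtype mice. Eµ-MTCP1 mice held 36.7, 38.4 and 48.9 CPM, which overlapped with wildtype, and Eµ-TCL1 mice 46.2, 49.3 and 53.8 CPM, which lay above it. The log2 differences of 0.47 ± 0.23 and 0.73 ± 0.23 did not pass the test (adjusted p = 0.244 and 0.0763, edgeR). The Eµ-TCL1 value passed with DESeq2 (adjusted p = 0.0479) and without wildtype mouse Z2754 (log2 fold change 0.99, adjusted p = 0.0278), and over all alternatives its adjusted p ranged up to 0.407. With the deposited whole-gene counts and no filter the differences were smaller, 0.22 and 0.38.

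The standard mouse reference showed where the whole-gene and coding values of Cd86 part. It includes Cd86-203, a transcript without a coding sequence that has 2 exons: its first exon ends at the same base as that of the coding transcript Cd86-201, and its second (chr16:36660774-36661614) lies inside the first intron of Cd86-201. By the Salmon estimates Cd86-203 in wildtype mice took 36.6 to 40.6% of Cd86 reads, against 9.87 to 18.4% among Eµ-MTCP1 and 17.7 to 19.8% among Eµ-TCL1 mice. The share of Cd86-201 was 59.1 to 63.4% in wildtype, 77.3 to 83.8% among Eµ-MTCP1 and 75.1 to 79.3% among Eµ-TCL1 mice, again without overlap between transgenic and wildtype mice. In reads per 1000000 assigned to that reference, Cd86-203 stood at 19.5, 31.9 and 33.2 in wildtype, 7.11, 12.3 and 13.6 in Eµ-MTCP1 and 16.3, 16.8 and 17.1 in Eµ-TCL1 mice, and Cd86-201 at 33.8, 46.5 and 50.1, at 57.4, 60.4 and 61.7, and at 63.9, 65.3 and 76.1. On this scale the noncoding form was lower and Cd86-201 higher in every transgenic mouse than in any wildtype mouse, a pattern chosen after the values had been seen and given without a test. For Cd86-201 the separation of Eµ-MTCP1 from wildtype mice did not hold on other scales: in TPM of the same reference Z2606 stood at 19.03 and wildtype mouse Z2755 at 19.07, and in CPM of coding reads these groups overlapped. Because it marks this form, the junction of its 2 exons is shown with 20 bases on either side, the second exon in capitals (- strand, GRCm38, GENCODE M21).
Cd86-203 junction: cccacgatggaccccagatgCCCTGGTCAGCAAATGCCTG

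**Figure D4:**
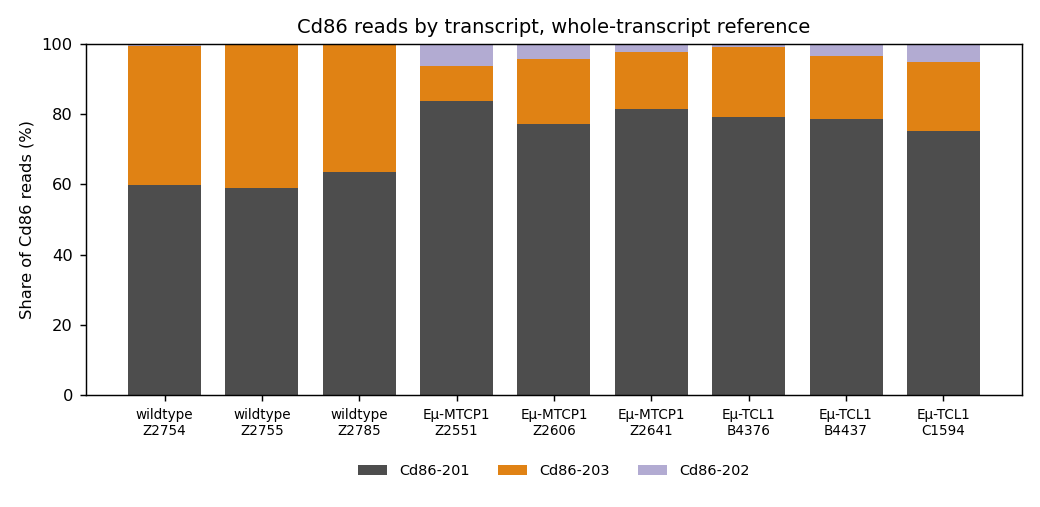
Share of Cd86 reads by transcript in each mouse (bars sum to 100%), from the reference of whole transcripts. The noncoding Cd86-203 takes 36.6 to 40.6% in wildtype mice and no more than 19.8% in any transgenic mouse.

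Per length of coding sequence (TPM, transcripts per 1000000 transcripts) Cd86 exceeded Cd80 in all 9 mice, but by different amounts. Cd80 made up 5.82, 8.38 and 10.1% of the summed TPM of both ligands in wildtype, 33.6, 37.4 and 39.1% in Eµ-MTCP1, and 23.8, 38.6 and 38.6% in Eµ-TCL1 mice. Wildtype mice did not overlap with either transgenic group. On whole transcripts, where noncoding Cd86 forms count as well, the mean shares were lower, 2.27 ± 1.07% (SD, n = 3), 20.4 ± 2.01% and 18.3 ± 5.22%, in the same order.

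Both PD-1 ligands lie side by side on chromosome 19, 22823 bases apart and in the same orientation. Cd274 (ENSMUSG00000016496, chr19:29367455-29388095, + strand) stood at 20.1, 21.9 and 31.7 CPM in wildtype and 29.1, 30.9 and 34.9 CPM in Eµ-MTCP1 mice, which overlapped, and at 51.4, 58.6 and 64.7 CPM in Eµ-TCL1 mice, above all others. The log2 fold change against wildtype was 1.24 ± 0.22 (2.37-fold; adjusted p = 0.00606, edgeR) in Eµ-TCL1 and 0.36 ± 0.22 (adjusted p = 0.329) in Eµ-MTCP1 mice. Tested directly, Cd274 differed by 0.88 ± 0.22 between the transgenic groups (95% confidence interval 0.40 to 1.36), with an unadjusted p of 0.00219 that did not hold after adjustment over all genes (adjusted p = 0.401, edgeR; 0.0641 to 0.647 over the alternatives). An annotated antisense gene, AC119228.1, covers 14.1% of the exon bases of Cd274, and whether the counting used strand is not stated; on these shared bases reads of both genes could not be told apart without strand.

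PD-L2 changed more. Pdcd1lg2 (ENSMUSG00000016498, chr19:29410919-29471161, + strand) was nearly absent from coding reads of wildtype mice, at 0.991, 1.30 and 2.72 CPM (8, 12 and 18 reads), and reached 18.3, 22.3 and 29.97 CPM in Eµ-MTCP1 and 24.4, 53.1 and 59.8 CPM in Eµ-TCL1 mice. The transgenic groups overlapped each other and not the wildtype mice. The log2 fold changes were 3.84 ± 0.47 (14.3-fold; adjusted p = 9.1e-04, edgeR) and 4.79 ± 0.48 (27.7-fold; adjusted p = 3.0e-04). Most reads by which this gene passed the expression filter were of transgenic mice; without the filter the log2 fold changes were 3.83 and 4.79 (adjusted p = 9.65e-05 and 1.93e-05). Directly, Eµ-TCL1 exceeded Eµ-MTCP1 mice by 0.96 ± 0.40 (95% confidence interval 0.08 to 1.83; unadjusted p = 0.0350, adjusted p = 0.702).

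The size of this increase depended on which part of the gene was counted. On the standard reference of whole transcripts wildtype mice held 93 to 104 reads of Pdcd1lg2, so that coding reads amounted to 7.69 to 19.4% of them, against 46.9 to 58.9% among Eµ-MTCP1 and 52.5 to 57.2% among Eµ-TCL1 mice. None of the other 8 genes had a coding share in wildtype mice that lay wholly below that of both transgenic groups, and that of Cd80 lay above both, at 48.7 to 61.3% against 35.4 to 46.4%. With whole transcripts the log2 fold changes were 1.87 ± 0.33 (adjusted p = 0.00609, edgeR) and 2.80 ± 0.33 (adjusted p = 9.3e-04), and with the deposited whole-gene counts 1.81 and 2.66, all still past the threshold. Pdcd1lg2-202, whose first exon begins at base 29422059, took 96.1 to 100% of these reads in the transgenic mice, while in wildtype mice the assignment varied from 7.98 to 100%, the remainder falling on Pdcd1lg2-201, which starts at base 29410919. An antisense gene, A930007I19Rik, overlaps Pdcd1lg2 without sharing exon bases, and had 60 to 106 deposited counts in wildtype, 50 to 65 among Eµ-MTCP1 and 39 to 79 among Eµ-TCL1 mice; its part in the wildtype reads was not tested.

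In TPM of coding sequences Pdcd1lg2 made up 4.46, 5.82 and 12.3% of both PD-1 ligands in wildtype, 42.2, 45.2 and 48.7% in Eµ-MTCP1 and 33.0, 50.0 and 57.1% in Eµ-TCL1 mice. With whole transcripts the mean shares were 20.5 ± 3.77%, 40.5 ± 5.07% and 42.0 ± 10.3% (SD, n = 3), and wildtype mice still did not overlap with the others. In C1594 alone Pdcd1lg2 was the more abundant of the pair by coding TPM, at 45.5 against 34.2 TPM for Cd274.

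**Figure D5:**
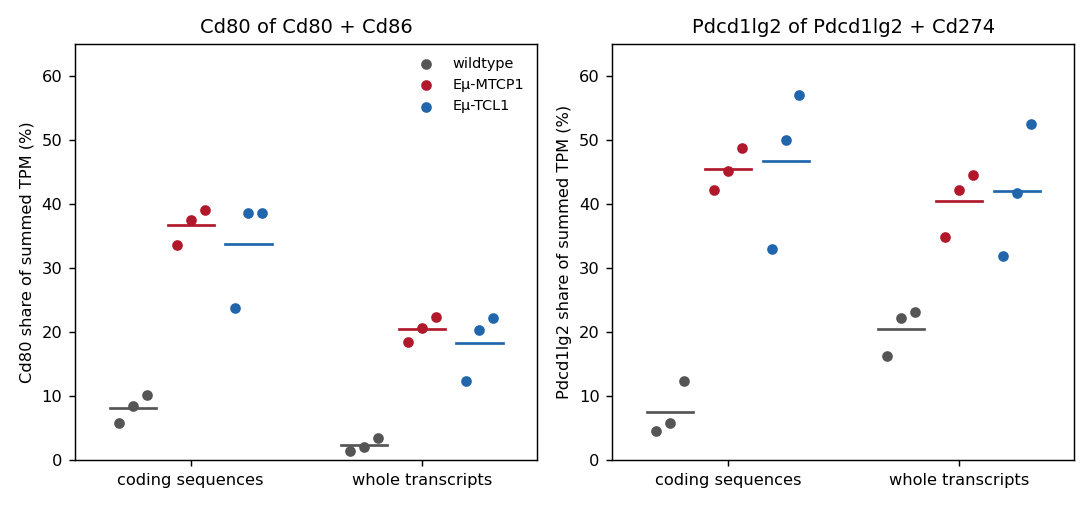
Share of Cd80 in the summed TPM of Cd80 and Cd86 (left) and of Pdcd1lg2 in that of Pdcd1lg2 and Cd274 (right), in percent, with 1 point per mouse and a bar for the mean, from coding sequences and from whole transcripts. Both shares are lowest in the 3 wildtype mice on either reference, and the gap for Pdcd1lg2 is narrower on whole transcripts, where the wildtype mean is 20.5%.

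CD80, CD86 and both PD-1 ligands are also carried by macrophages and dendritic cells. The 8 macrophage and monocyte markers, all detected in every library, summed to 722.6 to 1234 CPM in wildtype, 557.3 to 985.0 CPM among Eµ-MTCP1 and 372.1 to 1467 CPM among Eµ-TCL1 mice, highest in B4376. Most of these sums was Lyz2 in wildtype mice, at 558.7 to 929.0 CPM, and single markers moved differently. Cd68, a lysosomal protein of macrophages, was higher in both groups without overlap, at 171.6 to 323.1 CPM in Eµ-MTCP1, 154.1 to 235.5 CPM in Eµ-TCL1 and 36.1 to 68.3 CPM in wildtype mice (log2 fold change 2.06 ± 0.32, adjusted p = 0.00316, and 1.91 ± 0.32, adjusted p = 0.00462, edgeR). Mrc1, a mannose receptor, had log2 differences of 2.25 ± 0.89 and 1.81 ± 0.88 that did not pass the test (adjusted p = 0.149 and 0.233), and none of the other 6 markers passed it. The 5 plasma cell markers, all detected in every library, summed to 776.1 to 1305 CPM in wildtype, 331.7 to 2914 CPM among Eµ-MTCP1 and 101.9 to 1959 CPM among Eµ-TCL1 mice. Of these Prdm1, which encodes the plasma cell regulator Blimp-1, was higher in both groups without overlap, at 28.6 to 122.7 and 41.1 to 74.1 CPM against 12.1 to 24.5 CPM in wildtype mice (log2 fold change 2.11 ± 0.49, adjusted p = 0.0227, and 1.83 ± 0.48, adjusted p = 0.0401, edgeR). Cd68 and Prdm1 thus moved with Ctla4, Cd80 and Pdcd1lg2, and their part in these values was not tested. The 6 dendritic cell markers summed to 21.7 to 49.1, 3.80 to 18.6 and 2.66 to 36.5 CPM, with 1 to 4 of them at 0 in each library. Of these Flt3, a receptor of dendritic cell and early progenitor growth, stood at 12.9 to 28.8 CPM in wildtype, 2.97 to 10.2 CPM in Eµ-MTCP1 and 0.560 to 3.87 CPM in Eµ-TCL1 mice, where it passed the test (log2 fold change -3.06 ± 0.66, adjusted p = 0.0169, edgeR), as it did not in Eµ-MTCP1 mice (-1.80 ± 0.62, adjusted p = 0.105). C1594, a single library, had the lowest sum of the macrophage and of the dendritic cell list and the highest Cd80 and Pdcd1lg2 levels of all 9 mice. Cd68 was at 154.1 CPM or more in every Eµ-TCL1 mouse. The part of macrophages and dendritic cells in the ligand values was not tested.

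ICOSL showed the opposite change. Icosl (ENSMUSG00000000732, chr10:78069302-78083913, + strand) was the most abundant of the 9 genes per length of coding sequence in wildtype B cells, at 53.6 ± 7.08 TPM (SD, n = 3), apart from the next, Cd274 at 20.1 ± 7.36 TPM. In CPM it stood at 102.4, 103.1 and 105.7 in wildtype, 4.79, 5.58 and 9.09 in Eµ-MTCP1 and 3.07, 5.60 and 10.8 in Eµ-TCL1 mice. The lowest wildtype value was far above the highest transgenic one. Icosl fell by 3.989 ± 0.42 on the log2 scale in Eµ-MTCP1 (adjusted p = 4.2e-04, edgeR) and by 4.002 ± 0.42 in Eµ-TCL1 mice (adjusted p = 3.5e-04), and stayed past the threshold in all 19 alternatives, where it lay between -4.36 and -3.63 and between -4.58 and -3.68. Reads remained in every transgenic mouse, 25 to 78 per library. Flt3 was lower than in wildtype in the same 6 mice, as given above, and the dendritic cell sums of the Eµ-MTCP1 mice lay below those of wildtype mice; their part in the Icosl values was not tested. The difference between the transgenic groups was -0.01, with a 95% confidence interval from -0.91 to 0.88. Coding reads made up 27.8 to 32.3% of whole-transcript reads in wildtype, 16.02 to 28.4% among Eµ-MTCP1 and 26.3 to 32.3% among Eµ-TCL1 mice.

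Icosl-201 took 85.6 to 88.1% of Icosl reads in wildtype, 84.2 to 92.9% among Eµ-MTCP1 and 76.4 to 90.3% among Eµ-TCL1 mice on whole transcripts, so most Icosl reads were of the same form in every group. The bases before its start are printed because Icosl is the member whose level fell (184 bases, chr10:78069118-78069301, + strand, GRCm38.p6, RefSeq), with a kappa-B pattern match on the reverse strand in capitals; the 66 bases next to the RefSeq start are left out because GENCODE places them inside the first exon.
Icosl upstream: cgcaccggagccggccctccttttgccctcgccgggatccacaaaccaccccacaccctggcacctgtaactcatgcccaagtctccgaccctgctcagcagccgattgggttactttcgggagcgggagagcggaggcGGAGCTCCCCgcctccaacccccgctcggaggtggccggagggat
These bases were 67.9% G or C, with 15 CpG dinucleotides. The kappa-B letters are found in 45.8% of all windows, and the other 4 patterns had no match in the window of Icosl, where a second kappa-B match runs over the annotated start and is not printed.

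The last member, CD200, gave no call in either group. Cd200 (ENSMUSG00000022661, chr16:45382135-45409053, - strand) averaged 22.1 ± 0.988 CPM (SD, n = 3) in wildtype mice, with the highest at 22.9 CPM. It stood at 8.09, 15.3 and 19.6 CPM in Eµ-MTCP1 and at 14.4, 18.79 and 22.8 CPM in Eµ-TCL1 mice. The Eµ-MTCP1 mice lay below wildtype and the Eµ-TCL1 mice overlapped with it; the differences did not pass the test (log2 fold change -0.62 ± 0.33, adjusted p = 0.266, and -0.24 ± 0.32, adjusted p = 0.690, edgeR).

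The order of the 9 genes by TPM of coding sequences differed between groups. Wildtype cells were led by Icosl, with Cd274, Cd86 and Cd200 overlapping behind it and Ctla4, Cd80 and Pdcd1lg2 at 5.22 ± 0.65, 1.61 ± 0.15 and 1.496 ± 0.56 TPM. Eµ-MTCP1 cells were led by Ctla4 at 30.2 ± 10.01 TPM, which overlapped with Cd86 at 21.5 ± 4.32 TPM, as Cd86 did with Cd274 at 18.4 to 22.1 TPM. Eµ-TCL1 cells were led by Cd274 at 38.8 ± 4.22 and Pdcd1lg2 at 35.9 ± 14.2 TPM, which overlapped. In both transgenic groups Icosl ranked among the last 3, at 2.65 ± 0.98 and 2.78 ± 1.73 TPM. These leading places did not hold in TPM of whole transcripts, which include noncoding forms. There Cd200 exceeded Icosl in all 3 wildtype mice, at 78.9 to 107.0 against 60.9 to 73.7 TPM. In Eµ-MTCP1 mice Cd200 at 57.5 to 146.8 and Cd86 at 38.5 to 42.3 TPM exceeded Ctla4 at 16.3 to 28.6 TPM, and in Eµ-TCL1 mice both, at 40.5 to 76.5 and 47.97 to 56.3 TPM, exceeded Cd274 at 28.3 to 38.95 TPM. Most Cd200 TPM in every library came from Cd200-210, a noncoding transcript of 281 bases with 55.4 to 249.1 reads. It stood at 54.9 to 93.2 TPM in wildtype, 46.1 to 142.4 TPM in Eµ-MTCP1 and 32.0 to 61.4 TPM in Eµ-TCL1 mice. The coding Cd200-202 stood at 6.42 to 12.9, 2.07 to 4.97 and 4.30 to 8.85 TPM, respectively.

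A list of 52 other genes of costimulation and coinhibition was read for context, of which 36 passed the expression filter. In Eµ-MTCP1 mice 3 of them were higher (Tnfsf4, Entpd1 and Nt5e) and 3 lower (Cd40, Cd83 and Lgals9), and in Eµ-TCL1 mice 2 were higher (Tnfrsf8 and Entpd1) and 1 was lower (Cd40), out of 36 in each comparison. Most reads by which Tnfsf4 and Tnfrsf8 passed the expression filter were of transgenic mice. Over all genes tested 5.49% were higher and 3.99% lower in the former and 5.07% and 4.13% in the latter. The Eµ-TCL1 counts lie near these shares, and the Eµ-MTCP1 counts, of 3 genes in each direction, were not tested against them. The median log2 fold changes of the 36 genes were -0.17 and 0.21. These counts moved when 1 mouse was left out. In Eµ-MTCP1 2 to 9 genes then differed (3 without Z2551 or Z2785 and 2 without Z2754 or Z2755). In Eµ-TCL1 it was 1 without C1594, 5 without Z2641 and 0 without any one of the wildtype mice. The share of all genes called fell as well, from 9.48 and 9.20% to 4.59 and 4.52% without Z2754. It was 4.98 and 4.83% without Z2755 and 6.88 and 6.62% without Z2785. By DESeq2 the counts were 14 and 6, where 14.7 and 15.2% of all genes passed. Between the transgenic groups 0 passed by edgeR, with 4 of the 36 at an unadjusted p under 0.05, where 717 of the 11165 genes tested reached it.

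CD40, through which helper T cells activate B cells, was at 137.7 to 165.7 CPM in wildtype, 26.4 to 67.8 CPM among Eµ-MTCP1 and 60.9 to 80.2 CPM among Eµ-TCL1 mice, without overlap with wildtype. Cd40 fell by 1.74 ± 0.30 (adjusted p = 0.00550, edgeR) and by 1.16 ± 0.30 (adjusted p = 0.0350) on the log2 scale. CD83, an activation marker of B and dendritic cells, fell by 1.31 ± 0.27 in Eµ-MTCP1 mice (adjusted p = 0.0126), and Lgals9, which encodes galectin-9, a ligand of TIM-3, by 0.74 ± 0.21 (adjusted p = 0.0481). Entpd1 and Nt5e encode CD39 and CD73, which convert extracellular ATP to adenosine in sequence. Entpd1 was higher by 1.79 ± 0.45 (adjusted p = 0.0319) in Eµ-MTCP1 and 1.77 ± 0.45 (adjusted p = 0.0338) in Eµ-TCL1 mice, although Z2641 at 20.98 CPM lay within the wildtype range of 15.1 to 21.6 CPM. Nt5e rose by 2.63 ± 0.59 (adjusted p = 0.0204) in Eµ-MTCP1 mice, to 7.22 to 17.7 CPM from 0.743 to 3.63 CPM. In Eµ-TCL1 mice the log2 differences of Cd83, Lgals9 and Nt5e were -0.53 ± 0.26, -0.26 ± 0.20 and 1.32 ± 0.58 and did not pass the test (adjusted p = 0.244, 0.471 and 0.190). These 3 genes did not pass it between the transgenic groups either (adjusted p = 0.639, 0.724 and 0.724).

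Tnfsf4, the gene of OX40 ligand, stood at 1.42, 4.76 and 16.2 CPM in Eµ-MTCP1 mice against 0, 0 and 0.302 CPM in wildtype (adjusted p = 0.0414, edgeR), a level too low for a fold. With 0, 0 and 2 wildtype reads it passed the expression filter through the transgenic mice alone, so that its place among the higher genes of the list supports nothing further. In Eµ-TCL1 mice it stood at 0.140, 7.74 and 9.27 CPM, which did not pass the test (adjusted p = 0.0528). Tnfrsf8, which encodes CD30, stood at 7.86, 28.5 and 73.0 CPM in Eµ-TCL1 mice against 0.124, 1.19 and 1.51 CPM in wildtype (adjusted p = 0.0249), and at 1.32, 10.7 and 36.4 CPM in Eµ-MTCP1 mice, which did not pass it (adjusted p = 0.0605). With 1 to 11 wildtype reads, most reads by which Tnfrsf8 passed the expression filter were of transgenic mice. Its place among the higher genes of the list supports nothing further either. Neither gene passed the test between the transgenic groups (adjusted p = 0.970 for Tnfsf4 and 0.876 for Tnfrsf8). Among receptors of the members in the list, Cd28 had 4 to 17 reads per library and Icos 0 to 4 reads. Cd200r1, which encodes the receptor of CD200, stood at 0.543, 1.06 and 1.86 CPM in wildtype, 3.45, 7.10 and 10.6 CPM in Eµ-MTCP1 and 0.553, 4.06 and 15.1 CPM in Eµ-TCL1 mice, of which B4376 lay within the wildtype range. Its log2 differences of 2.60 ± 0.98 and 2.51 ± 0.98 did not pass the test (adjusted p = 0.133 and 0.143, edgeR).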

How the data were processed

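RNA-sequencing libraries of splenic B cells from 9 mice (3 per group, 1 library per mouse) were grouped by the transgene in the labels. The labels name both a SMARTer and Nextera XT preparation and a TruSeq stranded kit, and the strand setting of the counting is not given in the sources used here. Estimated counts per transcript and TPM values were made by the authors with Salmon 1.0.0 on 2 references: a standard mouse reference of 140748 transcripts and one of 57871 transcripts with human sequences, in which 92.2% of mouse coding transcripts had exactly the coding length of GENCODE M21. Effective lengths from the same deposited files were used for length offsets. Whole counts per gene for 50600 genes were deposited by the authors (HISAT2 2.0.6 and featureCounts are named in their processing notes, build GRCm38.p4), together with a table filtered by their CLEAR workflow, used only to see which entries had been kept. Normalized log2 values were deposited by the authors from tximport and DESeq2, and served for the transgene check; the columns of fold changes and p-values from the authors' own comparisons were not used. The number of unmapped measurement columns was 0.

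Identifiers linked transcripts to GENCODE M21 genes (GRCm38), with 0.190 to 0.291% of reads not joined, and reads were summed to 22154 genes and rounded. Tests used edgeR 4.0.16 in R 4.3.3 (filterByExpr, TMM factors 0.912 to 1.18, quasi-likelihood F test, all 9 libraries in 1 fit, two-sided, Benjamini-Hochberg within each comparison, threshold 0.05), and SE is the log2 fold change divided by the square root of F. CPM are TMM-scaled. The procedure was tested on simulated data. Reads carry no molecular identifiers, so floors cover counting error only. Alternatives were library size alone, DESeq2 size factors, the DESeq2 1.42.0 test, no expression filter, the standard reference, the deposited counts, length offsets, no immunoglobulin genes, only the 2 groups compared, and each mouse left out; deposited counts without a filter were added after the values had been seen. The members and the lists of costimulation genes and cell type markers were chosen with earlier results of these data known. Besides the 9 members, genes were named by rule: other costimulation genes with an adjusted p under 0.05 (up to 12 per comparison), the 3 genes most like each member in their profile, and the nearest protein-coding neighbours. Upstream windows came from RefSeq and were found for 7 of the 9 genes, not for Cd86 and Lag3. The windows of Cd80 and Pdcd1lg2 precede another start than that of the transcript with most reads and are not printed.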

Additional observations from a re-analysis of the deposited data

How the results depend on the processing

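Over 19 alternatives the 24 log2 fold changes of the members gave 441 values with the same direction and side of the threshold, 4 that lost the call, 2 that gained it and 9 that turned direction, and the number of members called stayed at 4 in Eµ-MTCP1 and between 4 and 6 in Eµ-TCL1 mice. The turned values were all of uncalled differences: Icosl between the transgenic groups was 0.08 with library size alone, 0.004 with only the 2 groups compared and -0.59 to 0.33 with 1 mouse left out; Cd80 between the groups was -0.019 to 0.425, Lag3 between the groups -1.34 to 0.14 and Lag3 in Eµ-TCL1 against wildtype -0.18 to 1.19 with 1 mouse left out. The other costimulation genes called in Eµ-MTCP1 numbered 14 with DESeq2, 14 with deposited counts without a filter and 2 to 9 with 1 mouse left out, and in Eµ-TCL1 6, 8 and 0 to 5. With deposited counts without a filter 1 member, Pdcd1, differed between the transgenic groups. Over all genes the calls against wildtype numbered 1059 and 1027, and 1646 and 1695 by DESeq2; without Z2754 they fell to 525 and 517, without Z2755 to 567 and 550, without Z2551 to 599 in Eµ-MTCP1 and without C1594 to 658 in Eµ-TCL1 mice, and deposited counts without a filter gave 1965 and 1928. Between the transgenic groups they numbered 5, and 73 by DESeq2, 16 without a filter, 111 with deposited counts without a filter and 8 without C1594. The causes were not tested. No paired analysis was possible because the labels name each mouse by an identifier of its own and give the groups no shared replicate numbers. Depth limits Pdcd1 and Lag3, with 0 to 88 and 1 to 34 coding reads per library, and both also varied widely between mice of a group.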

Other observations

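The genes whose centred log2 CPM profiles over the 9 libraries lay closest to each member were read by their root mean square (RMS) difference, among 8956 genes of at least 5 CPM on average, as a description without a test. Ctla4 was followed most closely by Pafah1b3 (RMS 0.357), Klc3 (0.418) and Endou (0.442), of which Pafah1b3 averaged 445.0, 428.6 and 93.9 CPM in Eµ-MTCP1, Eµ-TCL1 and wildtype mice. Cd80 was followed by Lysmd2 (RMS 0.245), Rbm47 (0.335), an RNA-binding protein, and Slc39a4 (0.342), a zinc importer at 93.1, 115.4 and 9.84 CPM. Pdcd1lg2 was followed by Plekha7 (0.398), Nid1 (0.403), which encodes the basement membrane protein nidogen-1 and averaged 241.7, 272.0 and 18.5 CPM, and Adamtsl4 (0.421). The genes nearest to Icosl were Zfp608 (RMS 0.526; 2.59, 2.20 and 40.9 CPM), Ssbp2 (0.629) and Emid1 (0.651). For Cd274 they were Abhd5 (0.248), Lrrk1 (0.254) and Snx10 (0.264), for Cd86 Prdx1 (0.153), Aga (0.155) and Eif1a (0.165), for Cd200 Yars2 (0.124), Clp1 (0.145) and Arhgap17 (0.159), and for Lag3 Adam1a (0.619), Mpeg1 (0.72) and Zfp113 (0.727). The distances all share the same 9 libraries, and those of Lag3 rest on few reads.

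Apart from Cd274 and Pdcd1lg2, which are neighbours of each other, the protein-coding neighbours of the members did not pass the test in either comparison with wildtype, where they could be tested. Plgrkt, which lies 64 bases from Cd274, had log2 fold changes of 0.41 ± 0.19 (adjusted p = 0.200, edgeR) and 0.50 ± 0.19 (adjusted p = 0.122). Beyond Pdcd1lg2, Ric1 had -0.58 ± 0.38 and -0.81 ± 0.38 (adjusted p = 0.367 and 0.219), and Adprh, 2857 bases from Cd80, 0.07 ± 0.17 in both. Ctla4 lies between Cd28 and Icos, 113640 and 62094 bases away; Cd28 had 0.17 ± 0.64 and -0.96 ± 0.67 (adjusted p = 0.889 and 0.409), and Icos was under the filter. Btla, an inhibitory receptor of B cells 124464 bases from Cd200, had -0.85 ± 0.29 and -0.86 ± 0.29 (adjusted p = 0.102 and 0.0937), and Ptms, beside Lag3, 1.86 ± 0.61 and 1.002 ± 0.61 (adjusted p = 0.0880 and 0.341).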
